A study of Homo sapiens with 8 samples.

Results

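The CXCL12 chemokine axis comprises the gene of the chemokine CXCL12 and the genes of its receptors CXCR4 and ACKR3 (formerly CXCR7). It was followed in T47D cells, an established luminal breast cancer line that expresses the estrogen receptor. The 3 genes were taken from 18417 genes that had a probe set with a single gene symbol, and each of the 3 had 1 such probe set among 19460. The members were chosen by a measured value and a known role: CXCL12 was selected on its averaged estradiol difference in these arrays, the largest of the 18417 genes, and the receptors because their products bind CXCL12. RNA samples from cell cultures were hybridised to 8 Affymetrix Human Gene 1.0 ST arrays, with 2 arrays in each of 4 treatment groups. The groups were 17β-HSD1 siRNA with 1 nM estradiol (E2), 17β-HSD1 siRNA with ethanol vehicle, control siRNA with 1 nM E2, and control siRNA with ethanol vehicle. All cells had been kept in medium with charcoal-stripped serum and transfected with 200 nM siRNA, either a scrambled control or a mixture of 3 siRNAs against 17β-HSD1, so the effect of a single siRNA cannot be told apart from that of the mixture. E2 or vehicle was added 2 days after transfection and left for 2 days. 17β-HSD1, encoded by HSD17B1, reduces estrone to the more potent estradiol.

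CXCL12 is a secreted chemokine that stromal cells make in most tissues, and it attracts cells that carry CXCR4. CXCR4 is a G protein-coupled receptor that signals through Gi proteins to migration and survival pathways. ACKR3 binds the same chemokine but works mainly through arrestins, and it takes CXCL12 up and degrades it. In estrogen receptor-positive breast cancer cells CXCL12 is known as a gene that estradiol induces, and CXCR4 is known for its part in the homing of breast cancer cells to CXCL12-rich organs.

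The bases upstream of the transcript start are shown for CXCL12, as the gene with the large E2 response, and for its receptor CXCR4. They come from RefSeq on GRCh38.p14, each 250 bases long, read 5′ to 3′ on the minus strand, at chr10:44385098-44385347 for CXCL12 and at chr2:136118150-136118399 for CXCR4. For CXCR4 the window farthest upstream of 3 in the table was used. ACKR3 was not among the promoter sequences used here. Capitals mark GGTCA, an arm of the palindromic estrogen response element, and CCGCCC, the reverse complement of the GC box GGGCGG that Sp1 family factors recognise.
CXCL12: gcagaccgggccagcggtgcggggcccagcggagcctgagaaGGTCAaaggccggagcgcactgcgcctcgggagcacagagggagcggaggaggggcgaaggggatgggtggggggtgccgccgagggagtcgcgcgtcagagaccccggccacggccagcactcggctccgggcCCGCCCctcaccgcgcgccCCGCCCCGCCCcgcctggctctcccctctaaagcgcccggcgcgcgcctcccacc
CXCR4: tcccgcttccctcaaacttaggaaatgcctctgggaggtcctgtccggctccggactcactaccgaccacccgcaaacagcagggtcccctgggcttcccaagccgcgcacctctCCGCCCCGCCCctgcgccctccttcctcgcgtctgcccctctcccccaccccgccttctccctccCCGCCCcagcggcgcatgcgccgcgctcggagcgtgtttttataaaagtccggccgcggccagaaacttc

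Both windows were rich in G and C, with 78.0% in CXCL12 and 68.0% in CXCR4. Motifs were searched on both strands. The CXCL12 window held GGTCA once, from base -208 to base -204 counted from the start, and the CXCR4 window held none. That motif occurred in 32.7% of 35114 windows of the same length. The full element, GGTCA and TGACC with 3 bases between them, was in neither window and in 0.0399% of all windows. Each gene's window held the GC box GGGCGG 3 times, 2 of them sharing a base, and 42.6% of all windows held it at least once. The AP-1 motif TGANTCA was in neither window (6.57% of all windows). No full element and no AP-1 match in these windows says nothing about sites elsewhere. These matches describe letters and do not show binding.

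The deposited values are log2 probe set signals, with array medians between 7.25 and 7.37. The least typical array was replicate 1 of the 17β-HSD1 siRNA, vehicle group, with a mean correlation to the other arrays of 0.976, against 0.984 to 0.988 for the others. Of the luminal epithelial markers, 12 of 12 lay above the median of all probe set means (7.30), among them ESR1, GATA3, KRT8 and EPCAM. That median includes probe sets without a symbol, and 10874 of all 18417 genes lay above it. Of the markers of other cell types, 2 of 12 for fibroblasts lay above it, COL1A1 (8.86) and COL3A1 (7.47). For endothelial cells 2 of 9 did, ENG (8.43) and CLDN5 (8.36), and for leukocytes 1 of 11, NKG7 (8.20). The rest, among them PDGFRB, PECAM1 and PTPRC, lay below. The mean fibroblast marker signal ran from 6.33 to 6.60 over the arrays, the endothelial mean from 6.42 to 6.70 and the leukocyte mean from 5.97 to 6.49, each highest in that least typical array. HSD17B1 was 8.32 and 8.37 with 17β-HSD1 siRNA in E2 and 8.41 and 8.36 with it in vehicle, against 9.12 and 8.56 with control siRNA in E2 and 9.35 and 8.66 in vehicle. The 4 knockdown arrays all lay below the 4 control siRNA arrays, as in 2.16% of the probe sets tested, and the averaged difference of -0.56 ± 0.16 (SE) had a limma adjusted p of 0.221, above the threshold of 0.05.

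CXCL12, the ligand, had a high signal on every E2 array and a low one on every vehicle array. With 17β-HSD1 siRNA its log2 signal was 10.46 and 10.76 in E2, against 7.45 and 7.55 in vehicle. With control siRNA it was 10.94 and 11.54 in E2, against 8.79 and 7.62 in vehicle. The lowest E2 array, at 10.46, lay above the highest vehicle array, at 8.79, so the media did not overlap. All 4 E2 arrays lay above all 4 vehicle arrays in 2.94% of the 21214 probe sets tested, but here CXCL12 was chosen for this difference and nothing is read from it.

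**Figure D1:**
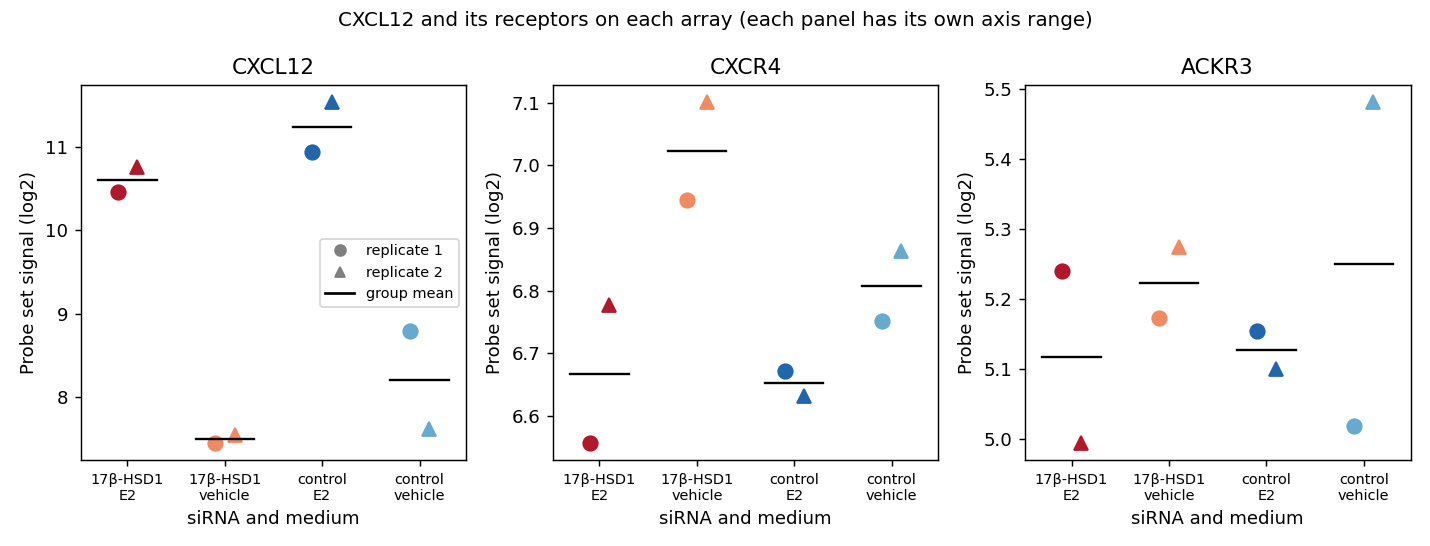
Log2 probe set signal of CXCL12, CXCR4 and ACKR3 on each of the 8 arrays, by siRNA and medium, with circles for replicate 1, triangles for replicate 2 and black bars for group means. CXCL12 separated by medium, from 10.46 to 11.54 in E2 and from 7.45 to 8.79 in vehicle, while CXCR4 lay between 6.56 and 7.10 and ACKR3 between 4.99 and 5.48 on axes of their own.

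As a description with no test, the averaged E2 difference of CXCL12 was 3.07 ± 0.22 on the log2 scale, or 8.41-fold. Its nominal 95% interval was 5.99 to 11.8. CXCL12 was chosen for the largest such difference, so the value may be overstated and the interval need not hold at 95%. The next gene by size was MYBL1, which encodes a transcription factor of the MYB family, at 1.85 ± 0.16. The E2 difference of CXCL12 was 3.11 ± 0.32 with 17β-HSD1 siRNA (8.61-fold) and 3.04 ± 0.32 with control siRNA (8.22-fold). Within replicate 1 it was 3.01 with 17β-HSD1 siRNA and 2.15 with control siRNA. Within replicate 2 it was 3.20 with 17β-HSD1 siRNA and 3.92 with control siRNA. The 2 replicates thus agreed closely with the knockdown and differed by more than 1 log2 unit with control siRNA, where the vehicle arrays themselves lay 1.17 apart. Without replicate 1 of control siRNA with vehicle, the control siRNA difference was 3.62 (12.3-fold), and without replicate 2 it was 2.45 (5.48-fold). An array reads a transcript's share of the RNA, so more cells that make CXCL12 and more CXCL12 RNA per cell cannot be told apart.

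The E2 difference of CXCL12 was not shown to depend on the siRNA. The E2 response with 17β-HSD1 siRNA minus that with control siRNA was 0.07 ± 0.45 on the log2 scale (limma adjusted p = 1.00). Its 95% interval ran from -0.91 to 1.05, which corresponds to a ratio of the 2 folds between 0.531 and 2.07, so a sizeable difference either way could not be detected with 2 arrays per group. Over all 21214 probe sets this contrast called 0% at a limma adjusted p below 0.05, and 140 (0.66%) had an unadjusted p below 0.05. That share is smaller than such a threshold passes without any difference. The sign of the CXCL12 value turned when single arrays were left out, from -0.52 without replicate 1 of control siRNA with vehicle to 0.65 without its replicate 2.

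Knockdown of 17β-HSD1 was accompanied by lower CXCL12 values in each medium, and the test over all probe sets did not call it. In E2 the knockdown arrays, at 10.46 and 10.76, both lay below the control siRNA arrays, at 10.94 and 11.54. In vehicle they lay at 7.45 and 7.55, against 8.79 and 7.62 with control siRNA, where the gap to the lower control array was 0.07. Values lower without overlap occurred in 20% of the probe sets tested in E2, in 12.1% in vehicle and in 6.26% in both media. The averaged difference was -0.67 ± 0.22 (4 arrays against 4), 0.629-fold with a 95% interval of 0.447 to 0.884 for this gene alone, and its limma adjusted p over 21214 probe sets was 0.307. In that contrast 0.457% of the probe sets were called, 0.24% higher and 0.217% lower. The difference was -0.64 ± 0.32 in E2 and -0.70 ± 0.32 in vehicle, with limma adjusted p of 1.00 and 0.907. In either medium 0% of the probe sets were called. An unadjusted limma p below 0.05 was found for 977 (4.61%) in E2 and 1157 (5.45%) in vehicle, near what that threshold passes without any difference.

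The averaged CXCL12 knockdown difference moved most when a control siRNA, vehicle array was left out. Without replicate 2 of that group it was -0.96 ± 0.16, or 0.513-fold, and passed (limma adjusted p = 0.0247). Without replicate 1 it was -0.38, or 0.770-fold (adjusted p = 0.872). In vehicle alone it was -1.29 without replicate 2 and -0.12 without replicate 1. Over all 14 alternatives the averaged value kept its sign, between -0.96 and -0.38, and the adjusted p ran between 0.0247 and 0.872. The same replicate 1 also had the highest HSD17B1 signal of the 8 arrays, 9.35, and its part in the CXCL12 difference was not tested. Without the least typical array, the averaged difference was -0.64.

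CXCR4, the signalling receptor, had slightly lower values in E2 than in vehicle with each siRNA, and none of its differences passed. With 17β-HSD1 siRNA its log2 signal was 6.56 and 6.78 in E2, against 6.95 and 7.10 in vehicle. With control siRNA it was 6.67 and 6.63 in E2, against 6.75 and 6.86 in vehicle. The E2 arrays were lower without overlap within each siRNA, as were 11.9% of the probe sets with 17β-HSD1 siRNA, 18.6% with control siRNA and 4.14% with both. Across the siRNAs the media overlapped, since the highest E2 array, at 6.78, lay above the lowest vehicle array, at 6.75. The averaged E2 difference was -0.26 ± 0.11, 0.838-fold with a 95% interval of 0.713 to 0.984 (limma adjusted p = 0.470). In the averaged E2 contrast 1.55% of the probe sets were called, 0.226% lower and 1.32% higher.

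The E2 difference of CXCR4 was -0.36 ± 0.15 with 17β-HSD1 siRNA and -0.16 ± 0.15 with control siRNA, with limma adjusted p of 0.997 and 1.00, in contrasts where 0.269% and 0.0848% of the probe sets were called. Their difference was -0.20 ± 0.21 (adjusted p = 1.00), and its interval from -0.66 to 0.26 includes 0. For this gene alone, the 95% interval of the E2 difference with 17β-HSD1 siRNA ran from -0.68 to -0.03. With control siRNA it ran from -0.48 to 0.17. The knockdown differences of CXCR4 had intervals that include 0. They were 0.02 ± 0.15 in E2 and 0.22 ± 0.15 in vehicle, and 0.12 ± 0.11 on average (1.08-fold, 95% interval 0.922 to 1.27, adjusted p = 0.887). In vehicle the knockdown arrays, at 6.95 and 7.10, lay above the control arrays, at 6.75 and 6.86, as 11.4% of the probe sets did. The group mean of CXCR4 was highest in 17β-HSD1 siRNA with vehicle, but the interval of its knockdown difference there, from -0.11 to 0.54, includes 0. The 2 E2 groups had means of 6.67 with 17β-HSD1 siRNA and 6.65 with control siRNA. The groups could thus not be ordered within either medium.

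ACKR3, the scavenging receptor, had values that overlapped between the groups, and none of its differences passed. With 17β-HSD1 siRNA its log2 signal was 5.24 and 4.99 in E2, against 5.17 and 5.27 in vehicle. With control siRNA it was 5.15 and 5.10 in E2, against 5.02 and 5.48 in vehicle. The arrays overlapped in every comparison, and the control siRNA, vehicle pair alone spanned 0.46. The averaged E2 difference was -0.11 ± 0.13 (0.924-fold, 95% interval 0.763 to 1.12, limma adjusted p = 0.966). The averaged knockdown difference was -0.02 ± 0.13 (0.987-fold, 95% interval 0.816 to 1.19, adjusted p = 0.992). The E2 responses differed between the siRNAs by 0.02 ± 0.25 (adjusted p = 1.00).

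Without replicate 2 of control siRNA with vehicle, the highest ACKR3 array, the averaged E2 difference of ACKR3 was 0.0014 and its knockdown difference was 0.10, so neither has a settled sign. The means of CXCR4 and ACKR3 over the arrays, 6.79 and 5.18, lay below the median of all probe sets. The table holds no detection measure, so such a signal does not show that a transcript was absent, and a change in a transcript near background would be understated. CXCL12, at a mean of 9.39, lay above that median.

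**Figure D2:**
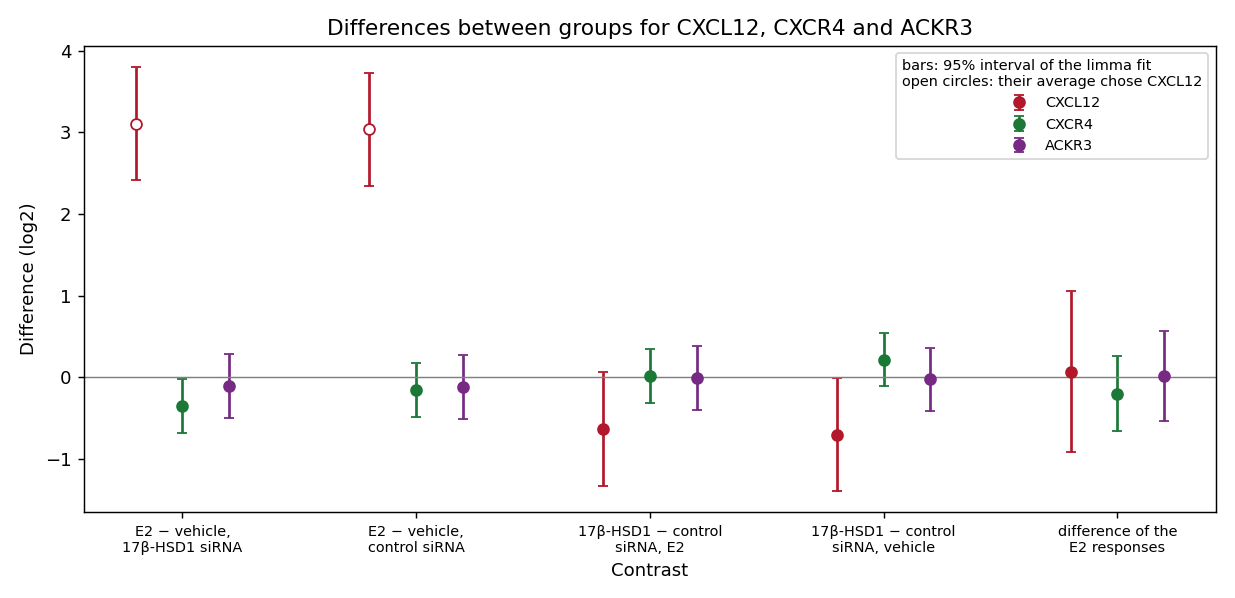
Differences on the log2 scale for CXCL12, CXCR4 and ACKR3 in 5 contrasts, with 95% intervals from the limma fit. The open circles are the E2 values of CXCL12 within each siRNA, 3.11 with 17β-HSD1 siRNA and 3.04 with control siRNA. Their average chose CXCL12, so their intervals are only nominal. The intervals of ACKR3 include 0 in every contrast shown.

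CXCL12 had its highest group mean in control siRNA with E2, at 11.24, then 10.61 in 17β-HSD1 siRNA with E2, 8.20 in control siRNA with vehicle and 7.50 in 17β-HSD1 siRNA with vehicle. Neighbouring groups in that order that share a medium did not pass the test. CXCR4 had its highest mean, 7.02, in 17β-HSD1 siRNA with vehicle, where the mean of CXCL12 was lowest. The order of its groups within each medium was not settled. ACKR3 means lay between 5.12 and 5.25, a narrower range than that of the control siRNA, vehicle pair. The E2 and knockdown comparisons of a gene draw on the same arrays and are not independent of each other.

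The genes whose signal followed CXCL12 most closely were ranked by Pearson correlation over the 8 arrays, among 1820 genes whose SD over the arrays was at least 0.3. The arrays fall into the 2 media, so genes that differ between the media correlate for that alone, and no test is given. NCR3LG1, which encodes B7-H6, a ligand of the natural killer cell receptor NKp30, was closest, with r = 0.995 and the same rank order on all 8 arrays. MYBL1 followed with r = 0.984, and FKBP4, which encodes a co-chaperone of steroid receptors, with 0.977. PXK, a kinase-like gene, had 0.976, NLN, which encodes the peptidase neurolysin, 0.969, and CDC25A, which encodes a phosphatase that activates cyclin-dependent kinases, 0.967.

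The E2 differences of these genes ran from 0.52 ± 0.11 for NLN to 1.85 ± 0.16 for MYBL1. That of CXCL12 was larger because CXCL12 was chosen as the largest of all genes. Each of the 6 also had a higher signal in replicate 1 than in replicate 2 of control siRNA with vehicle, as CXCL12 had. PXK had 8.41 and 7.71 there, MYBL1 8.15 and 7.73, and NCR3LG1 8.05 and 7.76. Their averaged knockdown differences were all negative, from -0.64 ± 0.16 for MYBL1 to -0.17 ± 0.11 for NLN. Since likeness to CXCL12 chose them, these values are no further evidence for it. Upstream windows were in the promoter table for NCR3LG1, PXK, NLN and CDC25A. GGTCA occurred in those of NCR3LG1, PXK and CDC25A, a motif found in 32.7% of all windows. The GC box occurred in each of the 4 (42.6% of all windows), and the full element in none. With so few windows, of genes chosen by likeness, nothing is read from these matches.

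**Figure D3:**
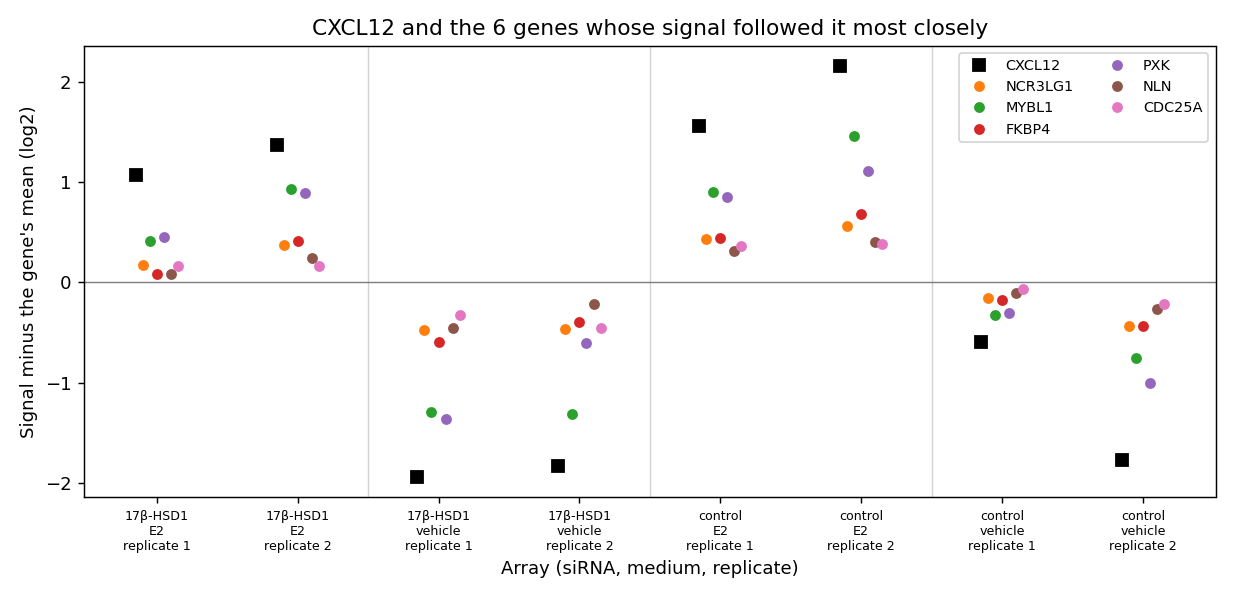
Log2 signal of CXCL12 and of the 6 genes that followed it most closely, each minus its own mean over the 8 arrays, by array. On the E2 arrays all 7 genes lie above 0 and on the vehicle arrays below it. CXCL12 (squares), chosen for the largest E2 difference, has the widest range, from -1.94 to 2.15.

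CXCR4 was followed most closely by MLPH (r = 0.899), which encodes the vesicle transport protein melanophilin, KCNJ13 (0.883), a potassium channel gene, the Wnt receptor gene FZD4 (0.857) and the adhesion molecule gene CEACAM6 (0.855), over the same 8 arrays. All 4 had lower mean signal in E2, with averaged E2 differences between -0.70 ± 0.22 for CEACAM6 and -0.43 ± 0.13 for FZD4. ACKR3 was followed less closely, by LMO3 (r = 0.842), NDP (0.787), which encodes the FZD4 ligand norrin, NCALD (0.745) and STEAP1 (0.742). Like ACKR3, these 4 had their highest signal in replicate 2 of control siRNA with vehicle, for example 8.00 for LMO3 and 7.50 for NDP. Since likeness to CXCR4 or ACKR3 chose these genes, their values are no further evidence for either receptor.

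Over all probe sets 1.55% were called with E2 and 0.457% with knockdown, so a count of 0 in a short list of genes is no result about the list. Of 38 measured genes of other chemokine ligands, 0 were called with E2, where the median difference was -0.05 against -0.02 over all 18417 genes. With knockdown 1 rose, CCL5, which encodes an attractant of T cells and other leukocytes, and 0 fell, with a median of 0.06 against 0.01 over all genes. CCL5 had a log2 signal of 9.65 and 10.00 with 17β-HSD1 siRNA in E2, against 7.67 and 8.56 with control siRNA in E2. In vehicle it had 8.90 and 10.38 with 17β-HSD1 siRNA, against 7.50 and 8.30 with control siRNA. All knockdown arrays were higher than all control arrays, as in 2.24% of the probe sets tested. The averaged difference was 1.72 ± 0.31, 3.30-fold (limma adjusted p = 0.0371, where 0.24% of the probe sets were called higher).

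The CCL5 difference stayed between 1.35 and 2.10 over 14 alternatives, and its call was lost in 8 of them. With all arrays kept it was lost with all probe sets tested (adjusted p = 0.224), with a trended robust spread (0.155) and after quantile normalization (0.0768). The call held with dim probe sets dropped (0.0430), in the additive model (0.0257) and with the replicate block (0.000487). It was lost without replicate 1 (0.124) or replicate 2 (0.165) of 17β-HSD1 siRNA in E2. It was also lost without replicate 1 of control siRNA in vehicle (0.0985) or in E2 (0.0565), and without replicate 2 of 17β-HSD1 siRNA in vehicle (0.0578). CXCL11, whose product binds ACKR3 as well as CXCR3, differed by 0.52 ± 0.18 with knockdown (adjusted p = 0.327), and CXCL10, another CXCR3 ligand, by 0.46 ± 0.14 (adjusted p = 0.239). Neither passed.

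Of 19 measured genes of other chemokine receptors, 0 were called in either averaged contrast, near the 1.55% and 0.457% of all probe sets. CCR2, the receptor of CCL2, had an E2 difference of -0.47 ± 0.11 (limma adjusted p = 0.0734), and the scavenging receptor gene ACKR2 a knockdown difference of 0.38 ± 0.10 (adjusted p = 0.154). Genes that retain or cleave CXCL12 or encode other ligands of its receptors gave 0 calls among 10 measured, which is also near those shares. DPP4, whose product removes the first residues of CXCL12, had an E2 difference of -0.19 ± 0.11 and a knockdown difference of 0.25 ± 0.11. ADM, which encodes adrenomedullin, a peptide that ACKR3 also binds, had an E2 difference of 0.34 ± 0.21.

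Among 23 genes of receptor coupling, arrestin and sorting, 0 were called in either averaged contrast, against 1.55% of all probe sets with E2 and 0.457% with knockdown, and the medians were -0.01 for E2 and -0.01 for knockdown. GNAI3, which encodes a Gi subunit that CXCR4 can couple to, had a knockdown difference of -0.45 ± 0.14 (limma adjusted p = 0.264), and GNA13, which encodes a G protein subunit that acts on RhoA, one of -0.48 ± 0.12 (adjusted p = 0.139). Of 33 genes of downstream signalling, 0 were called, again near those shares, and STAT3 had a knockdown difference of 0.50 ± 0.13 (adjusted p = 0.144). These lists read RNA and not the activity of the pathway.

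The list of transcription factors reported to act on the axis had 8 measured genes, among them VHL, which does not encode a transcription factor. Of the 8 genes, 1 fell with E2 and 0 were called with knockdown. In the same contrasts 0.226% of all probe sets were called lower with E2 and 0.457% were called either way with knockdown. The gene that fell was EPAS1, which encodes HIF-2α, a hypoxia-inducible factor known to raise CXCR4 in other cells. EPAS1 had a log2 signal of 10.01 and 9.75 with 17β-HSD1 siRNA in E2, against 10.59 and 10.43 with it in vehicle. With control siRNA it had 9.41 and 9.16 in E2, against 10.23 and 10.23 in vehicle. Every E2 array lay below every vehicle array, as in 1.99% of the probe sets tested. The averaged difference was -0.79 ± 0.11 (0.579-fold, limma adjusted p = 0.00576), and the call held in all 14 alternatives, with adjusted p up to 0.0460. The knockdown difference of EPAS1 was 0.44 ± 0.11 (adjusted p = 0.152).

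**Figure D4:**
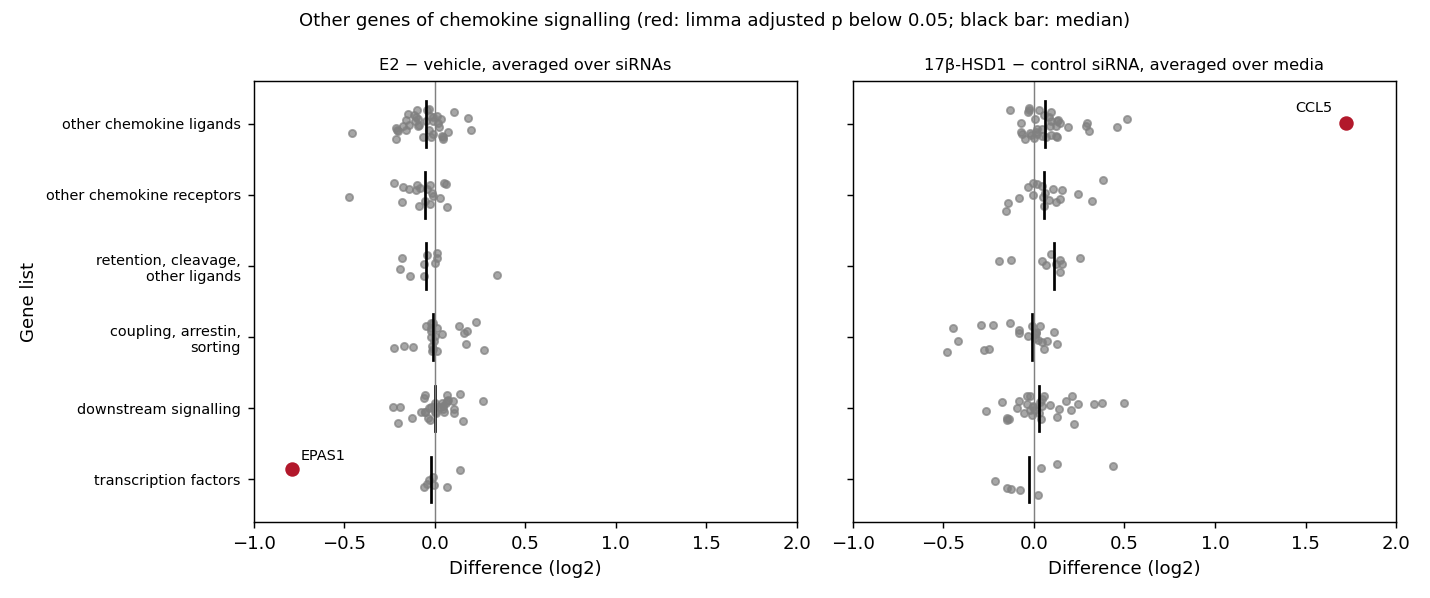
Averaged E2 differences (left) and averaged knockdown differences (right) on the log2 scale for the measured genes of 6 lists around the axis, 1 point per gene, with the list median as a black bar and genes called at a limma adjusted p below 0.05 in red. EPAS1 at -0.79 with E2 and CCL5 at 1.72 with knockdown are the called genes, and the list medians lie between -0.05 and 0.11.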

How the data were processed

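RNA from T47D cells was hybridised to 8 Affymetrix Human Gene 1.0 ST arrays, per the labels. The deposited table holds log2 signals of 33297 probe sets (2.42 to 15.2), a scale read from the values. How the authors summarised, background-corrected and normalized the probes is not given in the labels used here. Values were used as deposited, and the number of arrays limits the precision.

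Names came from the platform annotation, and 19429 of 19460 with a single symbol matched a RefSeq gene ID. The 21214 with at least 1 symbol were fitted with limma 3.58.1 in R 4.3.3 (1 coefficient per group, eBayes, 4 residual degrees of freedom). Calls used a Benjamini-Hochberg adjusted p below 0.05 over all of them. Differences are log2 ± SE, with unadjusted 95% intervals, and averaged contrasts set 4 arrays against 4. The fitting steps were tested on simulated data with independent noise of the same spread for all probe sets. These arrays differ from that, so the test does not show how reliable the calls are here. Of several probe sets of a gene, the one with the highest mean was used.

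The members, lists and alternatives were chosen with earlier results of these data known. Named genes are the members, HSD17B1, the next E2 rise after CXCL12, the 6 genes (CXCL12) or 4 genes (each receptor) with the highest Pearson correlation, list members called in an averaged contrast, and up to 4 others per list by smallest p. Of 148 listed pathway genes 131 had a probe set with a single symbol, and these are the genes called measured. CCL14, CCL15, CCL27, SDC4, HMGB1, MIF and CD74 were only on probe sets with several symbols and were left out of the lists.

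Per the labels the replicates come from 2 separate culture experiments, and their number was read as that of the experiment. Same-numbered arrays had deviations from the group means that correlated at 0.31 to 0.44 in 4 of 6 pairs of groups. Against control siRNA with vehicle the correlation was 0.01 for 17β-HSD1 siRNA with E2 and -0.20 for 17β-HSD1 siRNA with vehicle.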

Additional observations from a re-analysis of the deposited data

How the results depend on the processing

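The alternatives were to drop dim probe sets (both receptors among them), test all probe sets of the table, quantile-normalize again, let the prior spread follow signal with robust estimation, add the replicate block, use an additive model, fit the 4 arrays compared alone, and leave out each array. The 3 genes had no other single-symbol probe set to try. With arrays left out in turn, the CXCL12 knockdown difference ran from -0.96 to -0.38, its difference in E2 response from -0.52 to 0.65, and its E2 difference with control siRNA from 2.45 to 3.62. The CXCR4 knockdown difference in E2 ran from -0.10 to 0.13. For ACKR3 the averaged E2 difference ran from -0.23 to 0.0014, the averaged knockdown from -0.13 to 0.10, and the difference in E2 response from -0.22 to 0.25. Its E2 difference ran from -0.23 to 0.017 with 17β-HSD1 siRNA and from -0.35 to 0.11 with control siRNA. Its knockdown difference ran from -0.13 to 0.11 in E2 (0.0055 after quantile normalization) and from -0.26 to 0.21 in vehicle. None of these ACKR3 or CXCR4 values passed the threshold, and the causes were not tested.

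With the replicate block no call of CXCL12, CXCR4 or ACKR3 changed (CXCL12 knockdown adjusted p = 0.235). Probe sets called in the averaged E2 contrast numbered 329, or 509 with the replicate block, 99 with all probe sets (the cause was not tested), and 121 to 319 without single arrays. In the averaged knockdown they numbered 97, or 285 with the replicate block, 157 in the additive model, 62 after quantile normalization, 0 with all probe sets (2525 at an unadjusted limma p below 0.05), and 0 to 186 without single arrays. The 0 arose without either 17β-HSD1 siRNA array in E2, where 1274 and 1380 had an unadjusted p below 0.05. For the knockdown in vehicle limma called 0 (1157 unadjusted), 37 with the replicate block, and 0 (1620 unadjusted) when the control siRNA, vehicle numbers were crossed in it, both added after seeing the data. With 2 arrays per group, differences in the receptors smaller than their intervals could not be resolved.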
